A study of Mus musculus with 51 samples.

Results

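The 44 genes described here encode proteins of DNA repair and of the response to DNA breaks. They form a list of gene symbols that uses no measured value but was drawn up with earlier results of these data known, and all 44 were found among the 36528 gene identifiers of the count table. Their transcript levels were compared between lungs treated with bleomycin, a drug that cuts DNA strands, and lungs given saline. All 44 passed the filter on low counts in each of the 4 cell fractions.

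The animals were male C57/B6 mice given bleomycin (8 mice) or saline (5 mice) into the trachea, and the lungs were taken at day 14. Their age is not given in the sources used here. The labels name no transgene, mutation or other agent in either group. Lung cells were sorted by flow cytometry into CD31+ (endothelial), CD45+ (leukocyte), EpCAM+ (epithelial) and triple-negative cells, which carry none of the 3 surface markers. CD45+, EpCAM+ and triple-negative cells gave 8 libraries from bleomycin and 5 from saline lungs each, and CD31+ cells gave 7 and 5, for 51 libraries in all. A library averages over many cells, so fewer cells of a type and less RNA per cell cannot be told apart.

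Cells mend broken DNA by several routes. Homologous recombination copies the missing sequence from the sister chromatid, which ties it to cells that have replicated their DNA, while end joining seals broken ends at any stage of the cell cycle. The kinases ATM and ATR sense breaks and stalled replication and signal through CHK2 and CHK1. Base excision, nucleotide excision and mismatch repair deal with damaged bases, bulky lesions and copying errors. Bleomycin is widely used to provoke lung injury and fibrosis in mice.

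Total counts ran from 15.7 to 36.5 M per library (M, mega), and values below are counts per 1 M (CPM). The markers of each sort were the highest in their own fraction, for example a mean log2 CPM of 10.01 to 10.4 in bleomycin and 10.4 to 10.5 in saline CD31+ libraries over 12 endothelial genes. In every fraction markers of the other cell types were present too, and none was at 0 in every library of a group. The library Saline_CD45_646 stood apart: its mean over 15 genes of cell division was 4.79 on the log2 CPM scale, against 3.07 to 3.67 in the other 4 saline CD45+ libraries. Calls of members after bleomycin that changed without it are given both ways. Bleomycin_CD31_621 had more epithelial RNA than the other bleomycin CD31+ libraries (mean log2 CPM over 12 markers 7.44, the others 4.34 to 5.46). Bleomycin_CD45_613 had more mesenchymal RNA than the other bleomycin CD45+ libraries (7.50, the others 2.81 to 5.61).

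Promoters were searched on both strands for short words known from genes of the cell cycle. RefSeq (GRCm38.p6) gave the stretch from 250 bases before to 50 bases after the start for 36 of the 44 members. The E2F word TTTCCCGC was in 6 of these (16.7%: Bard1, Brca2, Chek2, Mdc1, Msh6 and Xrcc6), against 1.24% of the 27025 genes in the table. Another E2F word, TTTGGCGC, was in 0 members and in 0.58% of genes. The NF-Y word CCAAT was in 20 members (55.6%), against 41.06% of genes, and TTTGAA, the cell cycle genes homology region, in 4 (11.1%), against 20.23%. The promoters shown are those of the 3 members with the largest rise in CD31+ cells among those that hold an E2F word. They are written 5′ to 3′ on the strand of the gene, with the words found in capitals. A word on the opposite strand appears as its reverse complement, GCGGGAAA for E2F and ATTGG for NF-Y.
Bard1, chr1:71102923-71103222, minus strand: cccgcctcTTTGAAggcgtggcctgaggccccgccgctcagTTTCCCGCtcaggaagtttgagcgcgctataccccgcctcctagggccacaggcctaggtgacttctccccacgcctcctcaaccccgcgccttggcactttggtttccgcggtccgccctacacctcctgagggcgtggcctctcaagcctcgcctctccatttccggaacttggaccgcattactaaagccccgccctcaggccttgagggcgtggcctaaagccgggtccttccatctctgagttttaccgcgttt
Brca2, chr5:150522371-150522670, plus strand: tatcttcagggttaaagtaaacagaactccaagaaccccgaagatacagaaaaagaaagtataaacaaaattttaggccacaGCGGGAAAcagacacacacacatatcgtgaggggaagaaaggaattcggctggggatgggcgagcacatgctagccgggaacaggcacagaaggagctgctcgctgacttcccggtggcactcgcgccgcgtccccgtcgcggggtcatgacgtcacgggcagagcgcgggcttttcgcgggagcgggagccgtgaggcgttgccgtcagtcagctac
Chek2, chr5:110839733-110840032, plus strand: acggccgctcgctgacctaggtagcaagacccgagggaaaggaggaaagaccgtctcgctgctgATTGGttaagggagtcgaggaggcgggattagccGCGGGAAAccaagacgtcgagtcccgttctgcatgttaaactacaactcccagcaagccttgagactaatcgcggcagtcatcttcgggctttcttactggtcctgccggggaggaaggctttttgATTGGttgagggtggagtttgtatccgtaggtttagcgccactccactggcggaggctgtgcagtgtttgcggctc
Counted back from the RefSeq start, the TTTGAA word of Bard1 begins at -242 and its E2F word at -209. The E2F word of Brca2 begins at -168, and that of Chek2 at -152, between NF-Y words at -186 and -26. In another annotation, GENCODE M21, Brca2 begins at 150522297 and Chek2 at 110839800, so their E2F words lie after those starts. Among the 9 members with a promoter here that rose in each of CD31+, EpCAM+ and triple-negative cells, 2 held an E2F word (Bard1 and Chek2). Among the 27 other members with a promoter, 4 did (Brca2, Mdc1, Msh6 and Xrcc6). A match of letters is not a measurement of binding, and members without a match rose as well.

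After bleomycin 11 members, most of them genes of homologous recombination, the Fanconi pathway and the checkpoint kinases, rose in each of CD31+, EpCAM+ and triple-negative cells, by up to 13.5-fold for Rad51ap1. Of all genes tested in the 3 fractions, 9.7% did so. Of the 44 members 3, all of them among these 11, rose in all 4 fractions, a share near the 6.3% of all genes that did. Only 2 of the 44 members, Atm and Trp53bp1, fell in all 4 fractions, a share near the 4.41% of all genes that did. The call of Atm in triple-negative cells was lost without any 1 of 6 libraries. In CD31+ cells 16 members were higher and 11 lower, where 24.2% and 24.6% of all genes were (edgeR quasi-likelihood F test, Benjamini-Hochberg adjusted p under 0.05). With the mean of leukocyte markers as a covariate the CD31+ counts were 15 higher and 4 lower, and the falls that passed were those of Atm, Dclre1c, Prkdc and Xpc, not that of Trp53bp1. The shares of all genes in that fit are not given here, so the drop cannot be read as particular to the members. In EpCAM+ cells 17 were higher and 5 lower, where 31.2% and 28.9% of all genes were. In triple-negative cells 16 were higher and 10 lower, where 27.7% and 27.7% of all genes were. In CD45+ cells 6 were higher and 8 lower, where 28.4% and 26.8% of all genes were. Without Saline_CD45_646, when Brca1, Exo1, Chek1 and Fancd2 passed as well, the CD45+ counts were 10 higher and 8 lower. The number of falls in triple-negative cells rested on single libraries: it was 4 without Bleomycin_Negative_636, 6 without Bleomycin_Negative_637, 5 without Bleomycin_Negative_643, 6 without Saline_Negative_659, 6 without Saline_Negative_661, 6 without Saline_Negative_662 and 3 without Saline_Negative_663. Shares of all genes are not given for the counts without single libraries, so their changes cannot be read as particular to the members.

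The median log2 fold change over the members was 0.10 in CD31+, -0.038 in CD45+, 0.14 in EpCAM+ and 0.054 in triple-negative cells. Over all genes tested it was -0.006, -0.004, 0.016 and 0.009. Rises of at least 2-fold were seen for 8 members in CD31+, 1 in CD45+, 7 in EpCAM+ and 6 in triple-negative cells, and no fall reached 2-fold. In the same order, 7.07%, 7.23%, 9.66% and 6.21% of all genes passed with a rise of at least 2-fold and 4.44%, 8.46%, 4.8% and 8.64% with such a fall. Bleomycin and saline libraries did not overlap for 14 members with higher and 4 with lower levels in CD31+ cells, where 13.1% and 13.3% of all genes did not. The numbers were 12 and 4 in EpCAM+ (18.5% and 17.3%) and 8 and 3 in triple-negative cells (15% and 14.6%), with 3 and 3 in CD45+ cells (18% and 13.4%). Bard1, Blm, Brca1, Chek1, Chek2, Exo1, Fanca, Fancd2, Polq, Rad51ap1 and Rad54l were the 11 members that rose in each of CD31+, EpCAM+ and triple-negative cells. Of these, Chek2, Rad51ap1 and Rad54l passed the test in CD45+ cells as well. The 6 members that passed in no fraction were Nbn, Parp2, Xrcc1, Xrcc2, Xrcc4 and Xrcc6.

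**Figure D1:**
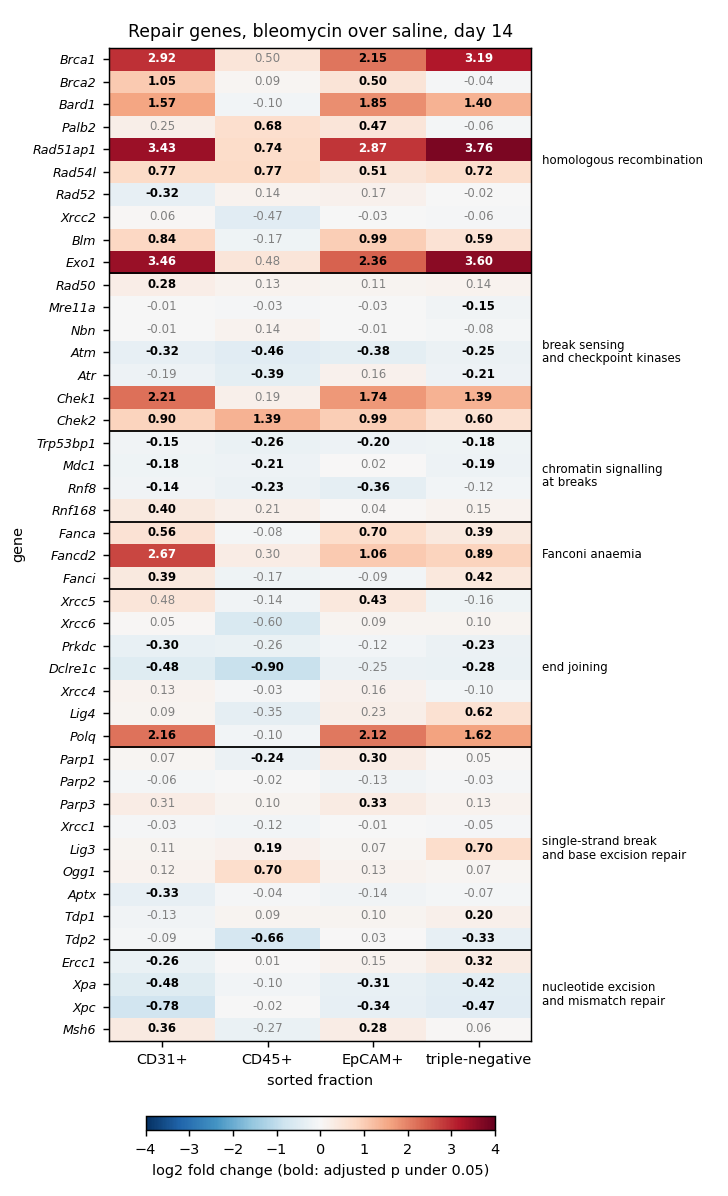
Log2 fold change of bleomycin over saline libraries for the 44 genes (rows, by role) in each sorted fraction (columns), with values past the test in bold. The largest rises are those of Rad51ap1, Exo1 and Brca1, up to 3.76 in triple-negative cells, and the same genes show 0.74, 0.49 and 0.50 in CD45+ cells.

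The largest change in each of CD31+, EpCAM+ and triple-negative cells belonged to a gene of homologous recombination, and in CD45+ cells to Chek2. Of its 10 genes, 7 rose and 1 fell in CD31+, 3 rose in CD45+, 8 in EpCAM+ and 6 in triple-negative cells, with no fall in those 3 fractions. Brca1 (GRCm38 chromosome 11, 101488761 to 101551955, minus strand), which steers broken ends towards recombination, had 7.09 to 22.9 CPM (median 11.4) in bleomycin CD31+ libraries, against 1.66, 1.93, 1.53, 1.63 and 1.80 CPM in saline ones. Every bleomycin library lay above every saline library, and the log2 fold change was 2.92 ± 0.31 (SE; adjusted p = 1.37e-05). In triple-negative cells Brca1 had 2.68 to 9.89 CPM (median 6.18) after bleomycin, against 0.620, 0.673, 0.702, 0.870 and 0.546 CPM after saline, again without overlap (3.19 ± 0.31, adjusted p = 1.49e-06). EpCAM+ cells had 6.46 to 11.9 CPM (median 9.10) after bleomycin, against 2.01, 2.32, 1.59, 1.86 and 2.42 CPM after saline, with no overlap (2.15 ± 0.16, 3.94e-08). CD45+ cells held 11.3 to 14.6 CPM (median 12.7) of Brca1 after bleomycin, against 8.15, 7.44, 18.04, 6.14 and 5.999 CPM after saline. The highest of these saline values, 18.04 CPM, belonged to Saline_CD45_646. The CD45+ estimate was 0.50 ± 0.23 (adjusted p = 0.0737) with that library and 0.91 (adjusted p = 1.89e-05) without it.

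Bard1, which forms a ubiquitin ligase with BRCA1, had 1.99 to 3.68 CPM (median 2.69) in bleomycin EpCAM+ libraries, against 1.10, 0.557, 0.318, 0.976 and 0.916 CPM in saline ones. Its log2 fold change was 1.57 ± 0.22 in CD31+, 1.86 ± 0.26 in EpCAM+ and 1.40 ± 0.16 in triple-negative cells (adjusted p = 7.53e-05, 1.47e-05 and 7.48e-06), and in none of the 3 did the groups overlap. In CD45+ cells Bard1 averaged 6.64 ± 0.649 CPM after bleomycin and 7.10 ± 2.99 CPM after saline (SD, n = 8 and 5), with 12.3 CPM in Saline_CD45_646 and no call. Brca2, a mediator of strand exchange in recombination, had 6.51 to 16.3 CPM (median 8.16) in bleomycin CD31+ libraries, against 5.47, 3.995, 4.54, 4.30 and 3.84 CPM in saline ones, without overlap (1.06 ± 0.21, 0.00131). In EpCAM+ cells Brca2 changed by 0.50 ± 0.18 (adjusted p = 0.0233), and the call was lost without Saline_EpCAM_657 (adjusted p = 0.0770). Palb2, the bridge between BRCA1 and BRCA2, rose in CD45+ (0.68 ± 0.21, 0.0122) and EpCAM+ cells (0.47 ± 0.15, 0.0137), with groups that overlapped in both.

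Rad51ap1, a DNA-binding accessory protein of recombination, and Exo1, the exonuclease that trims broken ends, were among the members with the lowest saline levels and the largest fold changes. In triple-negative cells Rad51ap1 had 1.54 to 5.17 CPM (median 2.74) after bleomycin, against 0.221, 0.205, 0.211, 0.265 and 0.195 CPM after saline, a 13.5-fold difference (log2 3.76 ± 0.35, adjusted p = 1.18e-06). In CD31+ cells it had 5.22 to 13.8 CPM (median 7.08) after bleomycin, against 0.793, 0.620, 0.804, 0.626 and 0.919 CPM after saline (3.43 ± 0.28, 1.94e-06). EpCAM+ cells had 1.58 to 5.07 CPM (median 3.49) after bleomycin, against 0.569, 0.464, 0.363, 0.325 and 0.586 CPM after saline (2.87 ± 0.27, 3.01e-07). The groups were apart in these 3 fractions. In CD45+ cells they overlapped, with 6.09 to 9.98 CPM (median 8.50) after bleomycin and 4.46, 4.07, 10.9, 2.30 and 3.86 CPM after saline, the highest again from Saline_CD45_646. The change there was 0.74 ± 0.28 (adjusted p = 0.0371), or 1.22 (adjusted p = 9.81e-05) without that library. With all libraries it was a fragile call, since the call was lost without any 1 of Bleomycin_CD45_613, Bleomycin_CD45_614, Bleomycin_CD45_616, Bleomycin_CD45_617, Bleomycin_CD45_618, Saline_CD45_644, Saline_CD45_645, Saline_CD45_647 or Saline_CD45_648 (adjusted p 0.0522 to 0.0886).

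Exo1 had 2.85 to 8.52 CPM (median 4.17) in bleomycin CD31+ libraries, against 0.604, 0.344, 0.523, 0.292 and 0.376 CPM in saline ones (3.46 ± 0.33, adjusted p = 5.48e-06). Triple-negative cells had 0.736 to 3.88 CPM (median 2.68) after bleomycin, against 0.221, 0.117, 0.281, 0.189 and 0.234 CPM after saline (3.597 ± 0.42, 7.05e-06), and in EpCAM+ cells the change was 2.36 ± 0.26 (1.23e-06). None of these groups overlapped. In CD45+ cells Exo1 had 3.09 to 6.49 CPM (median 4.31) after bleomycin and 2.08, 2.41, 7.52, 1.97 and 2.05 CPM after saline, with Saline_CD45_646 highest, and the estimate was 0.49 ± 0.33 (adjusted p = 0.220) with it and 1.08 (adjusted p = 6.42e-04) without it. Blm, the helicase mutated in Bloom syndrome, rose in CD31+ (0.84 ± 0.23, 0.0100), EpCAM+ (0.99 ± 0.18, 1.92e-04) and triple-negative cells (0.59 ± 0.20, 0.0211). In triple-negative cells the call was lost without Saline_Negative_660 (adjusted p = 0.0574).

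Rad54l, a motor protein that moves along DNA during recombination, rose in every fraction with no overlap in any. In CD31+ cells it had 10.3 to 17.0 CPM (median 12.9) after bleomycin, against 5.81, 9.23, 8.68, 9.43 and 7.39 CPM after saline, and in CD45+ cells 15.8 to 20.5 CPM (median 19.5), against 11.6, 12.3, 13.7, 7.67 and 10.3 CPM. The log2 fold changes were 0.77 ± 0.16 (CD31+), 0.77 ± 0.12 (CD45+), 0.51 ± 0.069 (EpCAM+) and 0.72 ± 0.10 (triple-negative), with adjusted p = 0.00133, 8.68e-05, 1.21e-05 and 3.96e-05. The effect on Rad54l did not pass the test of a difference between fractions (adjusted p = 0.407). Exons of Lrrc41 on the opposite strand cover 15.36% of its exon bases, and whether the authors' counting used the strand is not given in the sources used here, so Rad54l is uncertain. Lrrc41 itself had estimates of 0.15 in CD31+, 0.53 in CD45+, 0.17 in EpCAM+ and 0.35 in triple-negative cells. Rad52, a strand annealing protein, fell in CD31+ cells (-0.32 ± 0.10, 0.0203), where the call was lost without Saline_CD31_650 (adjusted p = 0.0596). Xrcc2, a gene of recombination, had estimates of -0.47 (CD45+) to 0.055 (CD31+) with no call.

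**Figure D2:**
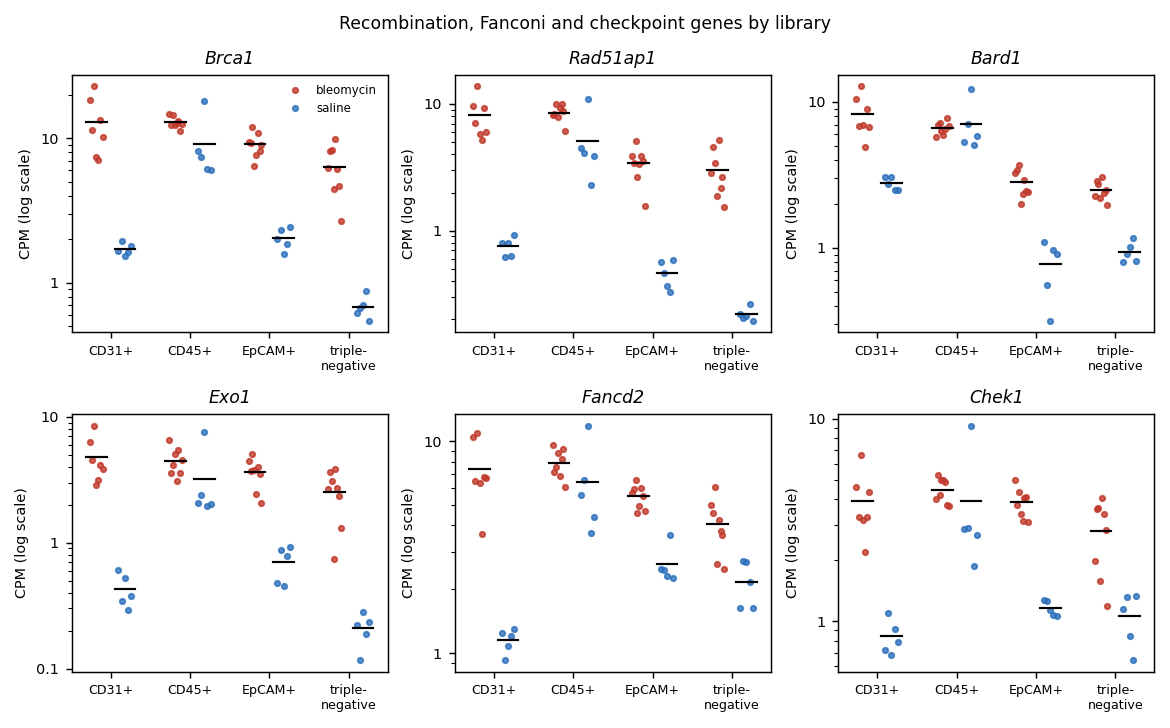
CPM on a log scale in each library for Brca1, Rad51ap1, Bard1, Exo1, Fancd2 and Chek1, by fraction, with bleomycin (red) left of saline (blue) and the mean as a bar. The groups are apart for all 6 genes in CD31+ and EpCAM+ cells. They overlap for all 6 in CD45+ cells, where Saline_CD45_646 gives the highest saline value, 18.04 CPM for Brca1.

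The Fanconi genes, which serve the repair of cross-links between DNA strands, rose in 3 of 3 cases in CD31+, 0 in CD45+, 2 in EpCAM+ and 3 in triple-negative cells, and none fell. Fancd2, whose ubiquitination marks the active pathway, had 3.66 to 10.97 CPM (median 6.72) in bleomycin CD31+ libraries, against 1.25, 0.930, 1.09, 1.21 and 1.30 CPM in saline ones. The groups were far apart (2.67 ± 0.26, adjusted p = 5.92e-06). In EpCAM+ cells it had 4.56 to 6.53 CPM (median 5.59) after bleomycin, against 2.50, 2.46, 2.32, 3.62 and 2.27 CPM after saline, without overlap (1.06 ± 0.15, 1.23e-05), and in triple-negative cells the groups overlapped (0.89 ± 0.23, 0.00388). In a fit of all 51 libraries the effect in CD31+ cells exceeded that in EpCAM+ cells by 1.64 ± 0.33 (adjusted p = 1.56e-04) and that in triple-negative cells by 1.82 ± 0.33 (adjusted p = 3.75e-05) on the log2 scale. In CD45+ cells the estimate for Fancd2 was 0.30 ± 0.23 (adjusted p = 0.283) with all libraries and 0.66 (adjusted p = 0.00551) without Saline_CD45_646.

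Fanci, the partner of FANCD2, had 17.9 to 23.6 CPM (median 20.2) in bleomycin CD31+ libraries, against 14.5, 15.8, 15.8, 16.9 and 15.7 CPM in saline ones. In triple-negative cells it had 13.4 to 16.5 CPM (median 14.6) after bleomycin, against 9.91, 9.98, 11.8, 11.7 and 11.7 CPM after saline. Neither pair of groups overlapped, at 0.39 ± 0.080 (0.00152) and 0.42 ± 0.074 (2.43e-04), while CD45+ (-0.17 ± 0.085) and EpCAM+ cells (-0.094 ± 0.064) did not pass. The effect in CD31+ cells exceeded that in EpCAM+ cells by 0.51 ± 0.10 (adjusted p = 1.87e-04). Exons of Polg on the opposite strand cover 15.95% of the exon bases of Fanci, and Polg had estimates of -0.041 in CD31+ and 0.047 in triple-negative cells, with no call, and fell by 0.31 in CD45+ and 0.56 in EpCAM+ cells. Fanca, of the Fanconi core ligase, rose by 0.56, 0.70 and 0.39 in CD31+, EpCAM+ and triple-negative cells (adjusted p = 0.00122, 1.33e-05 and 0.00422). Exons of Zfp276, which did not pass in any fraction, cover 10.5% of its exon bases on the opposite strand.

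Among the 7 break sensors and checkpoint kinases, 3 rose and 1 fell in CD31+, 1 rose and 2 fell in CD45+, 2 rose and 1 fell in EpCAM+ and 2 rose and 3 fell in triple-negative cells. Chek1, the kinase downstream of ATR, had 2.19 to 6.62 CPM (median 3.29) in bleomycin CD31+ libraries, against 0.717, 1.10, 0.683, 0.918 and 0.794 CPM in saline ones (2.21 ± 0.27, adjusted p = 3.30e-05). In EpCAM+ cells it had 3.09 to 5.00 CPM (median 3.90) after bleomycin, against 1.27, 1.25, 1.14, 1.07 and 1.06 CPM after saline (1.74 ± 0.16, 2.02e-07). The groups were apart in both fractions and overlapped in triple-negative cells (1.39 ± 0.31, 0.00157). In CD45+ cells the estimate for Chek1 was 0.19 ± 0.31 (adjusted p = 0.6253) with all libraries and 0.80 (adjusted p = 0.00155) without Saline_CD45_646, which held 9.26 CPM against 1.86 to 2.89 in the other saline libraries.

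Chek2, the kinase downstream of ATM, had the largest rise of any member in CD45+ cells. It had 15.5 to 21.2 CPM (median 18.2) in bleomycin CD45+ libraries, against 8.10, 6.91, 6.11, 7.29 and 6.33 CPM in saline ones, with no overlap (1.39 ± 0.11, adjusted p = 9.94e-08). Without Saline_CD45_646 the change was 1.36 (adjusted p = 5.26e-07). In CD31+ cells it had 7.45 to 14.5 CPM (median 11.1) after bleomycin, against 4.30, 7.06, 5.83, 6.17 and 5.10 CPM after saline (0.90 ± 0.17, 8.51e-04), and in EpCAM+ cells 8.90 to 13.9 CPM (median 10.9), against 5.47, 4.74, 5.04, 5.95 and 6.30 CPM (0.99 ± 0.12, 3.86e-06). Those groups did not overlap, while the triple-negative ones did (0.60 ± 0.14, 0.00237). The effect in CD45+ cells exceeded that in triple-negative cells by 0.77 ± 0.19 (adjusted p = 0.00126). Against the effect in CD31+ cells the difference (CD31+ minus CD45+) was -0.43 ± 0.19 (adjusted p = 0.0762), and against EpCAM+ cells (CD45+ minus EpCAM+) 0.36 ± 0.19 (adjusted p = 0.139).

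Atm, the kinase that answers double-strand breaks, was lower after bleomycin in every fraction. In CD31+ cells it had 25.4 to 33.6 CPM (median 31.3) after bleomycin, against 39.7, 34.5, 38.0, 36.5 and 39.7 CPM after saline. CD45+ cells had 33.3 to 52.1 CPM (median 46.2) after bleomycin, against 60.4, 66.8, 54.7, 69.2 and 54.9 CPM after saline, and in EpCAM+ cells 18.7 to 25.3 CPM (median 23.8), against 33.9, 30.2, 28.1, 27.1 and 33.4 CPM. All bleomycin libraries lay below all saline libraries in these 3 fractions, at -0.32 ± 0.074, -0.46 ± 0.11 and -0.38 ± 0.076 (adjusted p = 0.00296, 0.00291 and 4.41e-04). In triple-negative cells the groups overlapped (-0.25 ± 0.090, 0.0293), and the call was lost without any 1 of Bleomycin_Negative_636, Bleomycin_Negative_637, Bleomycin_Negative_643, Saline_Negative_659, Saline_Negative_661 or Saline_Negative_663 (adjusted p 0.0502 to 0.0918). Within the second block of columns of the deposited table the triple-negative estimate was 0.002. Atr, the kinase of stalled replication, fell in CD45+ cells (-0.39 ± 0.088, 0.00169) and in triple-negative cells (-0.21 ± 0.082, 0.0410), where the call was lost without any 1 of Bleomycin_Negative_636, Bleomycin_Negative_637, Bleomycin_Negative_641, Bleomycin_Negative_642, Bleomycin_Negative_643, Saline_Negative_659, Saline_Negative_661, Saline_Negative_662 or Saline_Negative_663 (adjusted p 0.0553 to 0.106).

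The complex of MRE11, RAD50 and NBN, which binds broken ends, held 1 rise in CD31+ and 1 fall in triple-negative cells. Rad50 had 23.1 to 29.9 CPM (median 24.7) in bleomycin CD31+ libraries, against 22.5, 20.5, 22.2, 21.0 and 19.9 CPM in saline ones, without overlap (0.28 ± 0.074, adjusted p = 0.00743). Mre11a, the nuclease, fell in triple-negative cells (-0.15 ± 0.056, 0.0338), where the call was lost without any 1 of Bleomycin_Negative_636, Bleomycin_Negative_642, Bleomycin_Negative_643, Saline_Negative_659, Saline_Negative_660, Saline_Negative_662 or Saline_Negative_663 (adjusted p 0.0506 to 0.0896). Nbn, the adaptor for ATM, passed in no fraction, with estimates from -0.077 to 0.14.

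Of the 4 genes of chromatin signalling at breaks, 1 rose and 3 fell in CD31+, 3 fell in CD45+, 2 in EpCAM+ and 2 in triple-negative cells. Trp53bp1 encodes 53BP1, which favours end joining over recombination, and fell in every fraction. In triple-negative cells it had 70.8 to 81.0 CPM (median 76.4) after bleomycin, against 84.8, 83.8, 85.1, 88.5 and 90.2 CPM after saline (-0.18 ± 0.044, adjusted p = 0.00300). CD45+ cells had 63.1 to 79.5 CPM (median 72.9) after bleomycin, against 79.8, 95.9, 87.4, 94.2 and 82.5 CPM after saline (-0.26 ± 0.067, 0.00455). The groups were apart in these fractions and overlapped in CD31+ (-0.15 ± 0.047, 0.0155) and EpCAM+ cells (-0.21 ± 0.053, 0.00320). With the mean of leukocyte markers as a covariate the CD31+ fall did not pass (-0.128, edgeR adjusted p = 0.134). Exons of Tubgcp4, which passed in no fraction, cover 15.04% of its exon bases on the opposite strand.

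Mdc1, the adaptor that reads phosphorylated histone H2AX, fell by 0.18 in CD31+ cells (adjusted p = 0.0334), where the call was lost without any 1 of Bleomycin_CD31_620, Bleomycin_CD31_623, Bleomycin_CD31_624, Saline_CD31_649, Saline_CD31_650 or Saline_CD31_653 (adjusted p 0.0637 to 0.0847). Its fall in CD45+ cells was 0.21 (0.0455), and the call was lost without any 1 of Bleomycin_CD45_618, Saline_CD45_644, Saline_CD45_645, Saline_CD45_647 or Saline_CD45_648 (adjusted p 0.0549 to 0.140). In triple-negative cells it fell by 0.19 (0.0257), and the call was lost without any 1 of Bleomycin_Negative_636, Saline_Negative_660, Saline_Negative_662 or Saline_Negative_663 (adjusted p 0.0538 to 0.0783). The ubiquitin ligases RNF8 and RNF168 act in turn on histones beside a break. Rnf8 had 31.5 to 40.7 CPM (median 35.4) in bleomycin EpCAM+ libraries, against 47.6, 42.6, 47.8, 47.3 and 46.4 CPM in saline ones, without overlap (-0.36 ± 0.062, 1.10e-04). It fell in CD45+ cells too (-0.23 ± 0.078, 0.0227), where the call was lost without Saline_CD45_647 (adjusted p = 0.0707), and in CD31+ cells (-0.14 ± 0.045, 0.0236), where the call was lost without any 1 of Bleomycin_CD31_620, Bleomycin_CD31_622, Bleomycin_CD31_623, Saline_CD31_649 or Saline_CD31_651 (adjusted p 0.0504 to 0.07999). Rnf168 passed in CD31+ cells, with 34.9 to 40.9 CPM (median 38.1) after bleomycin, against 29.8, 26.4, 27.5, 29.1 and 30.4 CPM after saline (0.40 ± 0.055, 7.24e-05). The effect of bleomycin differed between the fractions for Rnf8 (F test, adjusted p = 0.0224) and Rnf168 (0.0321). Exons of Gm28043 on the same strand overlap 1542 of the 11703 exon bases of Rnf8. How reads there were counted is not given in the sources used here, so Rnf8 is uncertain.

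Among the 7 end joining genes, 1 rose and 2 fell in CD31+, 0 rose and 1 fell in CD45+, 2 rose and 0 fell in EpCAM+ and 2 rose and 2 fell in triple-negative cells. Polq, the polymerase of the route that joins ends through short matching stretches, had 3.43 to 9.14 CPM (median 6.45) in bleomycin CD31+ libraries, against 1.51, 1.14, 1.49, 1.92 and 0.919 CPM in saline ones (2.16 ± 0.28, adjusted p = 5.12e-05). In EpCAM+ cells it had 1.46 to 4.77 CPM (median 3.36) after bleomycin, against 0.569, 1.02, 0.227, 0.511 and 1.21 CPM after saline (2.12 ± 0.34, 6.60e-05). Neither overlapped, while in triple-negative cells Saline_Negative_663, at 1.52 CPM, lay within the bleomycin range of 1.16 to 4.07 CPM (1.62 ± 0.32, 6.18e-04). In CD45+ cells the estimate for Polq was -0.10 ± 0.21 (adjusted p = 0.698), and 0.20 (adjusted p = 0.308) without Saline_CD45_646.

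Dclre1c encodes Artemis, the nuclease that opens hairpin ends in end joining and in the recombination of antigen receptor genes, and had the largest fall of any member. In CD45+ cells it had 32.6 to 44.8 CPM (median 36.7) after bleomycin, against 58.3, 62.9, 94.3, 70.4 and 65.9 CPM after saline. The groups did not overlap (-0.90 ± 0.11, adjusted p = 5.26e-06), and the change was -0.77 (adjusted p = 3.97e-06) without Saline_CD45_646. In CD31+ cells it had 9.59 to 11.97 CPM (median 10.8) after bleomycin, against 15.7, 14.1, 14.0, 17.3 and 14.0 CPM after saline (-0.48 ± 0.084, 4.40e-04). In triple-negative cells it fell by 0.28 (0.0366), and the call was lost without any 1 of Bleomycin_Negative_637, Bleomycin_Negative_639, Bleomycin_Negative_641, Bleomycin_Negative_643, Saline_Negative_661 or Saline_Negative_663 (adjusted p 0.05001 to 0.135). The CD31+ effect minus the CD45+ effect was 0.49 ± 0.15 (adjusted p = 0.00815), and the CD45+ effect minus the EpCAM+ effect -0.70 ± 0.15 (adjusted p = 1.87e-04).

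Xrcc5 and Xrcc6 encode KU80 and KU70, which hold broken ends together. Xrcc5 had 40.9 to 54.0 CPM (median 47.4) in bleomycin EpCAM+ libraries, against 34.4, 39.9, 32.4, 35.9 and 33.7 CPM in saline ones, without overlap (0.43 ± 0.068, adjusted p = 5.23e-05). In CD31+ cells its estimate was 0.48 ± 0.20 (0.0601), or 0.30 (adjusted p = 0.0712) without Bleomycin_CD31_621, which held 7.37 CPM against 3.11 to 4.28 in the other bleomycin libraries. Xrcc6 passed in no fraction. CD45+ cells had 25.6 to 34.2 CPM (median 28.8) after bleomycin and 30.3, 32.2, 99.98, 28.9 and 30.2 CPM after saline, with Saline_CD45_646 far above the rest, and the estimate was -0.60 ± 0.27 (0.0748) with that library and -0.051 (adjusted p = 0.601) without it. In CD45+ cells Lig4, the ligase of classical end joining, had an estimate of -0.35 (adjusted p = 0.438), or 0.36 (adjusted p = 0.175) without Saline_CD45_646, which held 18.6 CPM. Lig4 rose in triple-negative cells, with 7.27 to 10.4 CPM (median 8.73) after bleomycin, against 5.89, 6.03, 5.09, 5.03 and 6.36 CPM after saline (0.62 ± 0.10, 1.12e-04). Prkdc, the catalytic kinase of end joining, fell in CD31+ (-0.30 ± 0.079, 0.00664) and triple-negative cells (-0.23 ± 0.087, 0.0377). In triple-negative cells the call was lost without any 1 of Bleomycin_Negative_636, Bleomycin_Negative_637, Bleomycin_Negative_638, Bleomycin_Negative_640, Bleomycin_Negative_642, Bleomycin_Negative_643, Saline_Negative_659 or Saline_Negative_663 (adjusted p 0.0510 to 0.1296). Xrcc4, the partner of LIG4, had estimates from -0.10 to 0.16 with no call.

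Of the 9 genes of single-strand break and base excision repair, 0 rose and 1 fell in CD31+, 2 rose and 2 fell in CD45+, 2 rose and 0 fell in EpCAM+ and 2 rose and 1 fell in triple-negative cells. Lig3, the ligase that works with XRCC1 and in mitochondria, had 44.5 to 58.1 CPM (median 49.1) in bleomycin triple-negative libraries, against 30.9, 32.1, 30.3, 27.4 and 31.4 CPM in saline ones. The groups were well apart (0.70 ± 0.069, adjusted p = 2.03e-06). Its estimates were 0.11 ± 0.053 in CD31+ (0.103) and 0.073 ± 0.062 in EpCAM+ cells (0.326). The CD45+ change was 0.19 ± 0.072 (0.0385), where the call was lost without any 1 of Bleomycin_CD45_613, Bleomycin_CD45_614, Bleomycin_CD45_616, Bleomycin_CD45_617, Bleomycin_CD45_619, Saline_CD45_644, Saline_CD45_647 or Saline_CD45_648 (adjusted p 0.0636 to 0.107). In the fit of all libraries the effect in each other fraction minus that in triple-negative cells was -0.55 ± 0.089 (adjusted p = 6.54e-06) for CD31+, -0.55 ± 0.089 (adjusted p = 2.57e-06) for CD45+ and -0.61 ± 0.088 (adjusted p = 4.37e-07) for EpCAM+ cells. Exons of Rffl on the opposite strand cover 25.07% of the exon bases of Lig3, so its rise is uncertain. Rffl had an estimate of 0.17 in triple-negative cells (adjusted p = 0.0564) and fell by 0.19, 0.32 and 0.33 in CD31+, CD45+ and EpCAM+ cells. Xrcc1, the scaffold of LIG3, passed in no fraction, with estimates from -0.12 to -0.008.

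**Figure D3:**
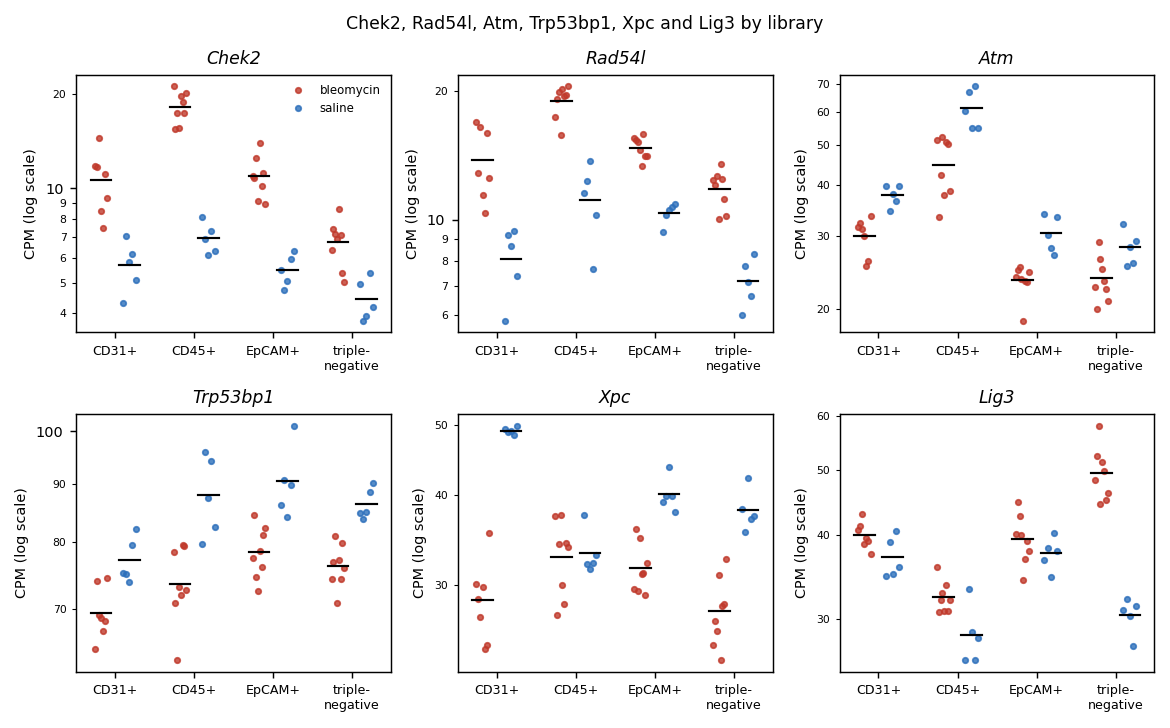
CPM on a log scale in each library for Chek2, Rad54l, Atm, Trp53bp1, Xpc and Lig3, by fraction, with bleomycin (red) left of saline (blue) and the mean as a bar. Chek2 and Rad54l are higher and Atm and Trp53bp1 lower after bleomycin in all 4 fractions, though the call of Atm in triple-negative cells rests on single libraries. The call of Trp53bp1 in CD31+ cells was lost with the leukocyte markers as a covariate. Rad54l is uncertain because exons of Lrrc41 overlap it on the opposite strand. Lig3 stands apart in triple-negative cells, with 44.5 to 58.1 against 27.4 to 32.1 CPM.

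Ogg1, the glycosylase that removes oxidised guanine, had 16.6 to 21.2 CPM (median 18.5) in bleomycin CD45+ libraries, against 11.9, 11.1, 9.89, 10.9 and 14.1 CPM in saline ones, without overlap (0.70 ± 0.10, adjusted p = 2.87e-05). Its estimates in CD31+, EpCAM+ and triple-negative cells were 0.13, 0.13 and 0.071, with no call. The effect in CD45+ cells exceeded that in EpCAM+ cells by 0.52 ± 0.14 (adjusted p = 0.00245). Exons of Camk1 on the opposite strand cover 10.61% of the exon bases of Ogg1, and Camk1 rose by 1.94 in CD45+ cells (1.67e-06), so the rise of Ogg1 is uncertain. Parp1, the main sensor of DNA nicks, moved in opposite directions. In EpCAM+ cells it had 59.2 to 80.6 CPM (median 76.5) after bleomycin, against 64.6, 63.1, 53.2, 60.8 and 61.6 CPM after saline (0.30 ± 0.069, 0.00129), with Bleomycin_EpCAM_632 lowest. CD45+ cells had 125 to 181 CPM (median 158) after bleomycin, against 184, 203, 163, 205 and 173 CPM after saline (-0.24 ± 0.092, 0.0379), and the call was lost without any 1 of Saline_CD45_644, Saline_CD45_645 or Saline_CD45_647 (adjusted p 0.0584 to 0.102). The CD45+ effect minus the EpCAM+ effect was -0.59 ± 0.12 (adjusted p = 5.27e-05).

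Parp3, a relative of PARP1 that acts at double-strand breaks, had 63.5 to 86.1 CPM (median 78.1) in bleomycin EpCAM+ libraries, against 51.6, 64.1, 60.8, 66.6 and 63.2 CPM in saline ones (0.33 ± 0.072, adjusted p = 9.23e-04). In CD31+ cells its estimate was 0.31 ± 0.24 (0.303), or 0.13 (adjusted p = 0.595) without Bleomycin_CD31_621, its highest library there at 31.1 CPM. Tdp2, which frees topoisomerase II from DNA ends, had 10.6 to 16.2 CPM (median 13.4) in bleomycin CD45+ libraries, against 14.5, 22.5, 22.6, 24.9 and 21.2 CPM in saline ones (-0.66 ± 0.14, 7.55e-04). In triple-negative cells it fell by 0.33 (0.0268), and the call was lost without any 1 of Bleomycin_Negative_636, Saline_Negative_661, Saline_Negative_662 or Saline_Negative_663 (adjusted p 0.0507 to 0.0719). Tdp1, which does the same for topoisomerase I, rose by 0.20 in triple-negative cells (0.0390), and the call was lost without any 1 of Bleomycin_Negative_636, Bleomycin_Negative_637, Bleomycin_Negative_638, Bleomycin_Negative_642, Bleomycin_Negative_643, Saline_Negative_661, Saline_Negative_662 or Saline_Negative_663 (adjusted p 0.0569 to 0.111). Aptx, which clears failed ligation ends, had 12.2 to 16.9 CPM (median 14.0) in bleomycin CD31+ libraries, against 19.7, 17.3, 17.8, 16.8 and 18 CPM in saline ones, with overlap (-0.33 ± 0.083, 0.00548). Parp2 had estimates from -0.13 to -0.017 with no call.

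Among the 4 genes of nucleotide excision and mismatch repair, 1 rose and 3 fell in CD31+, 0 rose and 0 fell in CD45+, 1 rose and 2 fell in EpCAM+ and 1 rose and 2 fell in triple-negative cells. Xpc, which finds distorted DNA, had 24.4 to 35.4 CPM (median 28.6) in bleomycin CD31+ libraries, against 49.4, 48.9, 49.0, 48.5 and 49.95 CPM in saline ones. The saline libraries lay close together and every bleomycin library lay below them (-0.78 ± 0.079, adjusted p = 8.40e-06). In EpCAM+ cells it had 29.1 to 35.9 CPM (median 31.1) after bleomycin, against 39.1, 39.9, 43.7, 39.8 and 37.9 CPM after saline (-0.34 ± 0.060, 1.58e-04), and in triple-negative cells 23.6 to 32.5 CPM (median 27.4), against 38.3, 35.6, 42.2, 37.0 and 37.4 CPM (-0.47 ± 0.076, 1.35e-04), again without overlap. In CD45+ cells the estimate was -0.019 ± 0.088 (0.868), and the CD31+ effect minus the CD45+ effect was -0.69 ± 0.11 (adjusted p = 3.10e-06). Xpa, which verifies the damage, fell by 0.48, 0.31 and 0.42 in CD31+, EpCAM+ and triple-negative cells (0.00481, 0.0103 and 8.02e-04).

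Ercc1, a subunit of the nuclease that cuts beside a lesion, moved in opposite directions. In CD31+ cells it had 20.7 to 24.5 CPM (median 23.9) after bleomycin, against 26.3, 30.3, 26.5, 27.0 and 28.0 CPM after saline, without overlap (-0.26 ± 0.062, adjusted p = 0.00371). Triple-negative cells had 20.9 to 29.1 CPM (median 26.9) after bleomycin, against 20.4, 21.6, 20.8, 24.6 and 18.3 CPM after saline, with overlap (0.32 ± 0.084, 0.00455). The CD31+ effect minus the triple-negative effect was -0.55 ± 0.11 (adjusted p = 1.16e-04). Msh6, which recognises mismatches after replication, rose in CD31+ (0.36 ± 0.10, 0.00712) and EpCAM+ cells (0.28 ± 0.071, 0.00277), with overlap in both.

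Tested directly, the effect of bleomycin differed between the fractions for 28 of the 44 members (F test over the interaction terms in a fit of all 51 libraries), where 64.3% of all genes did. The 5 smallest p-values belonged to Brca1, Rad51ap1, Bard1, Fanci and Lig3 (adjusted p = 1.36e-08, 1.58e-08, 9.03e-08, 1.10e-07 and 1.14e-07). Set against CD45+ cells, 18 members had a higher and 3 a lower effect in CD31+ cells (21.9% and 16.3% of all genes). The effect in CD45+ cells was higher than in EpCAM+ cells for 2 and lower for 17 members (17.3% and 21.5% of all genes), and higher than in triple-negative cells for 4 and lower for 15 (17.8% and 19.5%). Among the other fractions, 4 effects were higher and 4 lower in CD31+ than in EpCAM+ cells (14.4% and 12.2%). In CD31+ against triple-negative cells 3 were higher and 3 lower (14.7% and 10.5%), and in EpCAM+ against triple-negative cells 2 and 4 (16.9% and 14.4%). For Brca1 the CD31+ effect exceeded the CD45+ effect by 2.49 ± 0.35 (adjusted p = 1.64e-07), and the EpCAM+ effect minus the triple-negative effect was -1.03 ± 0.39 (adjusted p = 0.0382). Without Saline_CD45_646 the effect differed between fractions for 26 members, and the higher and lower counts were 17 and 3 (20.2% and 14.7% of all genes) for CD31+ against CD45+, 1 and 15 (16% and 20% of all genes) for CD45+ against EpCAM+ and 4 and 11 (16.4% and 18% of all genes) for CD45+ against triple-negative cells. The CD31+ minus CD45+ difference of Brca1 was then 2.09 ± 0.32 (adjusted p = 1.19e-06). For Dclre1c it was 0.36 ± 0.14 (adjusted p = 0.0444), and the CD45+ minus EpCAM+ difference -0.57 ± 0.14 (adjusted p = 0.00129). The other differences from CD45+ cells given above, those of Chek2, Lig3, Ogg1, Parp1 and Xpc, kept their direction and their side of the threshold without it.

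Genes of cell division, none of them a member, moved in the same libraries. Of 15, 15 rose in CD31+, 11 in CD45+, 14 in EpCAM+ and 15 in triple-negative cells, and 1, Bub1, fell in EpCAM+ cells. Their mean log2 CPM ran from 4.14 to 5.53 in bleomycin and 0.853 to 1.04 in saline CD31+ libraries, from 3.71 to 4.40 and 0.871 to 1.91 in EpCAM+ libraries, and from 3.07 to 4.26 and 0.107 to 0.495 in triple-negative libraries. In CD45+ cells the groups overlapped, with 4.34 to 4.80 in bleomycin and 3.07 to 4.79 in saline libraries. Mki67, the proliferation marker, had 109 to 300.2 CPM (median 169) in bleomycin CD31+ libraries, against 8.00, 9.64, 8.40, 11.1 and 8.10 CPM in saline ones. In CD45+ cells it had 125 to 173 CPM (median 154) after bleomycin, against 85.9, 111, 217, 65.9 and 84.8 CPM after saline (0.41 ± 0.23, adjusted p = 0.147). Without Saline_CD45_646, which held the highest of these saline values, Mki67 was 0.80 ± 0.12 higher (adjusted p = 1.17e-04), and 15 of the 15 division genes rose. Top2a, the topoisomerase of dividing cells, averaged 136 ± 46.7 CPM after bleomycin and 5.65 ± 0.871 CPM after saline in CD31+ cells (SD, n = 7 and 5). With the mean of the division genes as a covariate, 0 members passed in CD31+, EpCAM+ and triple-negative cells, where that mean separates the groups entirely, so division and treatment cannot be told apart there. In CD45+ cells 3 members were higher and 8 lower with the covariate, a fit that rests on Saline_CD45_646. The other saline CD45+ libraries, at 3.07 to 3.67, all lie below the bleomycin ones, so without it the mean separates the groups there too.

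**Figure D4:**
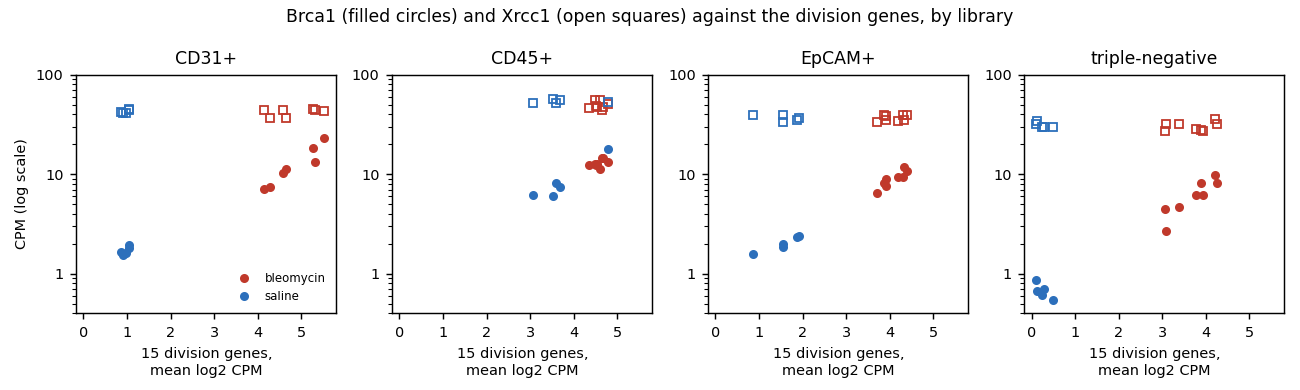
CPM of Brca1 (filled circles) and Xrcc1 (open squares) on a log scale against the mean log2 CPM of 15 division genes, 1 point per library and gene, bleomycin in red and saline in blue, 1 panel per fraction. Bleomycin and saline libraries lie apart along the horizontal axis except in CD45+ cells, where Saline_CD45_646 (score 4.79, 18.04 CPM of Brca1) lies among the bleomycin libraries.

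Markers of other cell types moved with treatment in some fractions. In CD31+ libraries 7 of the 11 leukocyte markers measured were higher and 0 lower after bleomycin. Their mean log2 CPM was 3.01 to 5.16 in bleomycin and 2.35 to 3.32 in saline libraries, and their summed level 399 to 1682 and 440.2 to 1748 CPM. With this mean as a covariate Rad52, Trp53bp1, Mdc1, Rnf8, Aptx, Ercc1 and Xpa no longer passed as lower and Msh6 no longer passed as higher in CD31+ cells, and no sign turned. In the same libraries 4 of 12 mesenchymal markers were lower, with summed levels of 318 to 1544 in bleomycin and 369 to 948 CPM in saline libraries. In CD45+ libraries 11 of 12 endothelial markers were lower after bleomycin, with summed levels of 262 to 547 in bleomycin and 450.4 to 1143 CPM in saline libraries. In EpCAM+ libraries 8 of 12 endothelial markers were lower, with summed levels of 306 to 446 in bleomycin and 340.3 to 529 CPM in saline libraries. There 4 mesenchymal markers were higher and 2 lower, and 3 leukocyte markers were higher and 1 lower. The summed level of the leukocyte markers was 2808 to 4060 CPM in bleomycin and 4068 to 5494 CPM in saline EpCAM+ libraries. Their mean log2 CPM was 1.87 to 4.10 in bleomycin and 2.08 to 3.16 in saline libraries. The sum is therefore carried by only part of these markers and is not a measure of leukocyte RNA as a whole. In triple-negative libraries 4 epithelial markers were higher and 3 leukocyte and 3 endothelial markers lower. With the leukocyte mean as a covariate Mre11a, Prkdc and Dclre1c no longer passed as lower and Tdp1 no longer passed as higher in triple-negative cells, and no call was lost in EpCAM+ cells. In CD45+ cells, with the mesenchymal mean as the covariate, Mdc1 no longer passed as lower. The part of the other marker lists in the changes of members was not tested. None of these markers was at 0 in any CD31+ or CD45+ library.

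The members also differed between the cell types of saline lungs. Levels are given here per kilobase (kb) of exon, taken over all annotated exons of a gene. That length can exceed the length of the transcripts present, so comparisons between genes are approximate. The mean was highest in CD45+ cells for 26 members, in EpCAM+ for 8, in CD31+ for 7 and in triple-negative cells for 3, or for 25, 8, 7 and 4 without Saline_CD45_646. For 43 of 44 members the saline fractions differed (F test), where 96.7% of all genes did. Chek2 was the exception with all libraries (adjusted p = 0.0682) and also without Saline_CD45_646. By pairs, CD31+ cells had 9 higher and 27 lower (35.3% and 37.2% of all genes) members than CD45+ cells, 20 higher and 13 lower (35.8% and 36.9% of all genes) than EpCAM+ cells and 17 higher and 6 lower (31.9% and 35.8% of all genes) than triple-negative cells. CD45+ cells had 27 higher and 10 lower (40% and 38.5% of all genes) than EpCAM+ cells and 26 higher and 9 lower (40.5% and 38.5% of all genes) than triple-negative cells, and EpCAM+ cells 15 higher and 11 lower (36.5% and 36.6% of all genes) than triple-negative cells. Without Saline_CD45_646 the CD45+ pairs gave 9 and 27 (34.2% and 36.4% of all genes) for CD31+ against CD45+, 26 and 11 (39.2% and 37.9% of all genes) for CD45+ against EpCAM+ and 27 and 9 (39.6% and 38.1% of all genes) for CD45+ against triple-negative cells. The smallest p-values belonged to Dclre1c, Xrcc5 and Parp1. Dclre1c had 6.95 ± 1.38 CPM per kb in CD45+, 1.60 ± 0.161 in CD31+, 1.08 ± 0.111 in EpCAM+ and 1.05 ± 0.174 in triple-negative cells (SD, n = 5 each). The EpCAM+ and triple-negative levels of Dclre1c did not differ beyond their error (log2 difference 0.046 ± 0.12 (adjusted p = 0.740)). Xrcc5 had 14.3 ± 1.02 CPM per kb in EpCAM+, 7.12 ± 0.365 in triple-negative, 5.69 ± 0.288 in CD45+ and 1.18 ± 0.0787 in CD31+ cells, and each neighbour in this order differed, the closest being CD45+ minus triple-negative at -0.32 ± 0.11 (adjusted p = 0.00858) on the log2 scale.

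Parp1 had 32.3 ± 3.08 CPM per kb in saline CD45+, 11.8 ± 0.821 in EpCAM+, 10.3 ± 0.647 in CD31+ and 9.60 ± 0.577 in triple-negative cells, and the CD31+ and triple-negative levels did not differ beyond their error (log2 difference 0.10 ± 0.091 (adjusted p = 0.316)). Parp3 had another order, with 38.0 ± 3.55 in triple-negative, 17.1 ± 1.52 in EpCAM+, 14.4 ± 2.09 in CD45+ and 3.95 ± 0.653 in CD31+ cells. Its CD45+ and EpCAM+ levels did not differ beyond their error (-0.25 ± 0.15 (adjusted p = 0.127)). Xrcc6 had a mean of 9.12 CPM per kb in CD45+ cells with a median of 6.28, since Saline_CD45_646 held 20.6. Brca1 and Exo1 were far lower, with means of 0.0864 to 0.988 and 0.0267 to 0.351 CPM per kb, lowest in triple-negative and highest in CD45+ cells. Without Saline_CD45_646 the CD45+ means of Brca1 and Exo1 were 0.747 and 0.232, and that of Dclre1c was 6.34.

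**Figure D5:**
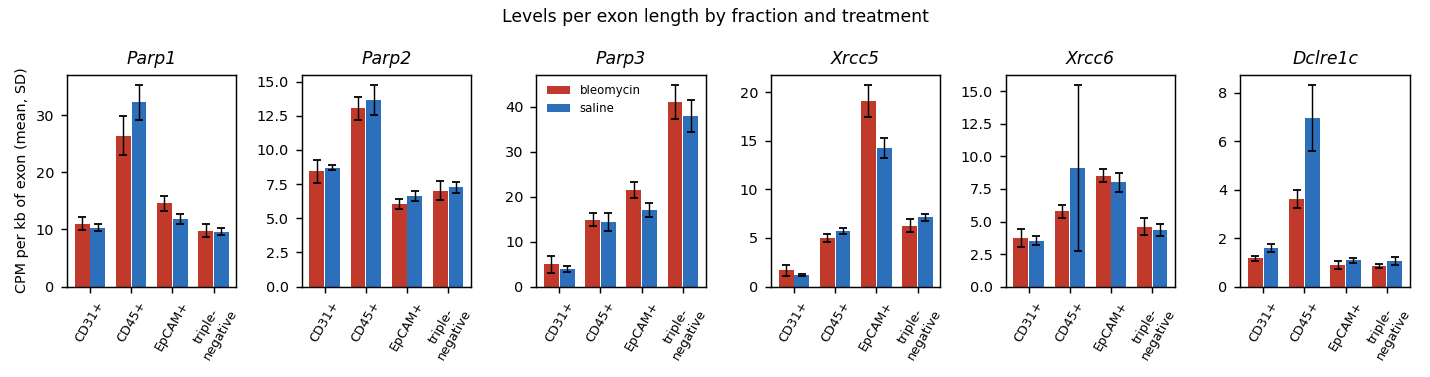
Mean CPM per kb of exon, with SD over libraries as error bars, of Parp1, Parp2, Parp3, Xrcc5, Xrcc6 and Dclre1c in bleomycin (red, left) and saline (blue) libraries of each fraction. Parp1 and Dclre1c are highest in CD45+ cells (32.3 and 6.95 in saline), Parp3 in triple-negative and Xrcc5 in EpCAM+ cells, and the long error bar of Xrcc6 in saline CD45+ cells comes from Saline_CD45_646.

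Of 64 further repair genes found in the table, 25 were higher and 16 lower in CD31+ cells (63 tested), where 24.2% and 24.6% of all genes were. In EpCAM+ cells 22 were higher and 13 lower (31.2% and 28.9% of all genes), and in triple-negative cells 23 and 12 (27.7% and 27.7%). In CD45+ cells the counts were 13 and 14 (28.4% and 26.8%), and they were not taken without Saline_CD45_646. The largest rises in CD31+ cells were those of Neil3 (4.36 ± 0.34), a base excision glycosylase, and Clspn (3.82 ± 0.38), the adaptor of CHK1 at replication forks, and the largest falls those of Fancb (-0.92 ± 0.13) and Atrip (-0.65 ± 0.071), the partner of ATR. In triple-negative cells Neil3 (4.11 ± 0.48) and Clspn (2.85 ± 0.27) rose most, and Rad51d (-0.75 ± 0.071) and Mutyh (-0.72 ± 0.17) fell most. In EpCAM+ cells Clspn (2.54 ± 0.21) was among the largest rises, and the largest falls were those of Ddb2 (-0.63 ± 0.071) and Fance (-0.53 ± 0.083). In CD45+ cells Neil2 (1.24 ± 0.20) and Rad51b (1.03 ± 0.26) rose most, and Neil1 (-1.59 ± 0.15) and Mutyh (-0.66 ± 0.15) fell most. Neil1, a glycosylase of oxidised bases, averaged 25.2 ± 2.77 CPM after bleomycin and 75.9 ± 24.0 CPM after saline (SD, n = 8 and 5).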

How the data were processed

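RNA from sorted lung cells was sequenced from stranded total RNA libraries, per the labels' protocols. The authors deposited whole-number counts of reads per gene, not normalized, as 1 table and as 51 single-library files that match it. The genome build was GRCm38 per the submitters' processing notes. The aligner, the counting program and its strand setting are not given in the sources used here. RefSeq gave symbols for 31049 of 36528 gene identifiers, and identifiers without a symbol held 1.63% of counts and were kept in the fits. Gene positions and exon lengths came from GENCODE M21 (GRCm38).

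Each fraction was fitted alone with edgeR 4.0.16 in R 4.3.3, after filterByExpr and TMM scaling, and the bleomycin effect was tested by the robust quasi-likelihood F test, two-sided, with Benjamini-Hochberg adjustment over all genes tested and a threshold of 0.05. The SE of a log2 fold change is its absolute value over the root of F. One fit of all 51 libraries in 8 groups tested differences of the effect between fractions and saline levels. CPM use the TMM factors of the fraction, and CPM per kb those of all libraries. Mean log2 CPM of gene lists used a prior count of 2. The fits were tested on simulated data. Totals of 15.7 to 36.5 M counts and the 5 to 8 libraries per group limit the precision.

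Groups were taken from the labels. The fractions were sorted from the same animals, but libraries were treated as independent. The tests between fractions, of effects and of saline levels, therefore ignore that libraries of different fractions share animals. All p-values measure only the spread between these libraries. The members and the other gene lists were chosen with earlier results of these data known. Members described by library were, in each fraction and role, the called member with the largest change, those called in all 4 fractions or in opposite directions, the 5 with the smallest interaction p and the 3 with the smallest p between saline fractions. Other members are given by their calls, and some of these with values by library, chosen after their values were seen. For other repair genes the 2 largest rises and falls per fraction are named, except for 1 result that is not reported here. Alternatives were RLE scaling, DESeq2 1.42.0 (Wald and likelihood ratio tests), no filter, a fit of all libraries, covariates for division genes and for cell type markers, and leaving out each library. A covariate for the block of table columns and fits within each block were chosen after seeing the data. The blocks are an order of columns whose meaning is not given in the sources used here.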

Additional observations from a re-analysis of the deposited data

Results flagged for a closer look

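In 18 of 192 groups of libraries of the 24 named members, 1 library lay far from the others of its group by Dixon's criterion, which chance meets in about 1 group in 20. Of these, 7 fell on Saline_CD45_646, always as the highest of 5 saline CD45+ libraries: 7.52 CPM of Exo1 (others 1.97 to 2.41), 9.26 CPM of Chek1 (others 1.86 to 2.89), 13.1 CPM of Polq (others 5.63 to 6.74), 10.9 CPM of Rad51ap1 (others 2.30 to 4.46), 18.04 CPM of Brca1 (others 5.999 to 8.15), 12.3 CPM of Bard1 (others 5.10 to 7.02) and 37.1 CPM of Fanci (others 28.3 to 29.4). The same library had the highest mean over the division genes among the saline CD45+ libraries, and the part of division in these values was not tested. The highest saline CD45+ values of Xpc and Rnf8 came from other libraries, with 37.5 CPM of Xpc (others 31.6 to 33.0) in Saline_CD45_644 and 37.1 CPM of Rnf8 (others 32.7 to 33.8) in Saline_CD45_647. Bleomycin_CD45_612 was lowest for Ercc1, with 16.3 CPM (others 19.7 to 21.6). Bleomycin_CD31_621, the library with the most epithelial RNA among the bleomycin CD31+ ones, was highest for Xrcc5, with 7.37 CPM (others 3.11 to 4.28).

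In EpCAM+ cells Bleomycin_EpCAM_632 was lowest for Atm, with 18.7 CPM (others 23.2 to 25.3), and for Parp1, with 59.2 CPM (others 74.7 to 80.6). Bleomycin_EpCAM_631 was highest for Aptx, with 22.3 CPM (others 17.9 to 19.7). Saline_EpCAM_657 was highest for Fancd2, with 3.62 CPM (others 2.27 to 2.50), and Saline_EpCAM_655 lowest for Rnf8, with 42.6 CPM (others 46.4 to 47.8). In triple-negative cells Bleomycin_Negative_639 was lowest for Ercc1, with 20.9 CPM (others 25.6 to 29.1), and Saline_Negative_663 highest for Polq, with 1.52 CPM (others 0.585 to 0.797).

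The effect of bleomycin differed between the 4 fractions for 18 of the 24 named members (edgeR quasi-likelihood F test over the interaction, Benjamini-Hochberg adjusted p over all genes). Since 5 of the 24 were named for their small p in this very test and others for opposite directions, this number cannot be read against the 64.3% of all genes that differed, while 28 of all 44 members did. The adjusted p was 1.73e-07 for Exo1, 6.19e-05 for Chek1, 0.0321 for Rnf168, 1.81e-07 for Fancd2, 2.27e-06 for Polq, 1.47e-05 for Xpc, 0.00631 for Chek2, 1.92e-04 for Dclre1c, 0.00103 for Ogg1. It was 1.58e-08 for Rad51ap1, 0.0224 for Rnf8, 1.14e-07 for Lig3, 2.80e-04 for Parp1, 1.39e-04 for Ercc1, 1.36e-08 for Brca1, 9.03e-08 for Bard1, 1.10e-07 for Fanci and 1.96e-05 for Xrcc5.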

How the results depend on the processing

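Of 89 calls of members over the 4 fractions, DESeq2 and another scaling of the libraries (RLE) ended 0 and 2, no filter on low counts 14, the marker covariate 13 and a fit of all 51 libraries 4, and none of these turned a direction. Fits within the first block of columns, with fewer libraries, ended 30 calls. Those within the second ended 34 and turned the sign of 1, Atm in triple-negative cells. When single libraries were left out, 18 of the 89 calls were lost at least once. The counts of members higher or lower stayed within 1.5 times except as follows. Without the filter 5 members were lower in CD45+ and 4 in triple-negative cells, and the fit of all 51 libraries gave 14 lower in CD45+ cells. The marker covariate left 4 lower in CD31+ cells. Within the first block of columns 2, 5, 1 and 6 were lower in CD31+, CD45+, EpCAM+ and triple-negative cells, and within the second 3, 3 and 2 in CD31+, CD45+ and triple-negative cells, with fewer libraries in each fit. The estimate of Atm in triple-negative cells was 0.002 within the second block. With the division genes as a covariate 0 members were higher and 0 lower in CD31+ cells, 0 and 0 in triple-negative cells and 0 and 0 in EpCAM+ cells, and 3 higher in CD45+ cells. Signs that turned under this covariate were, on the log2 scale, Brca1 -1.49, Brca2 -1.31, Bard1 -1.45, Rad51ap1 -0.055, Rad54l -1.27, Rad52 0.12, Blm -1.76, Rad50 -0.55, Chek1 -0.68, Chek2 -1.29, Rnf168 -0.002, Fanca -1.05, Fancd2 -0.38, Fanci -0.55, Polq -1.31, Aptx 0.22 and Msh6 -0.74 in CD31+, Rad51ap1 -0.11 and Chek1 -0.61 in CD45+, Brca2 -0.11, Bard1 -0.81, Palb2 -0.10, Polq -2.60, Parp1 -0.16, Xpc 0.048 and Msh6 -0.38 in EpCAM+ and Brca1 -0.57, Rad54l -0.42, Blm -1.92, Exo1 -1.28, Chek1 -2.61, Chek2 -0.58, Fancd2 -1.61, Prkdc 0.35, Polq -2.62, Lig3 -0.14, Ercc1 -0.12, Xpa 0.15 and Xpc 0.41 in triple-negative cells, of which Chek1 in CD45+ cells passed the test (edgeR adjusted p = 0.0391). In the 3 fractions other than CD45+ this covariate separates the groups entirely, and in CD45+ cells it would without Saline_CD45_646, on which the value of Chek1 rests (without that library and the covariate 0.80 (adjusted p = 0.00155)). Leaving out 1 library at a time gave 16 to 17 higher and 9 to 11 lower in CD31+ cells, 16 to 19 and 5 to 6 in EpCAM+ cells, 15 to 16 and 3 to 10 in triple-negative cells, 4 to 10 and 6 to 9 in CD45+ cells, 26 to 28 members whose effect differed between fractions and 43 to 44 whose saline level did. Shares of all genes are not given for these counts, so their changes cannot be read as particular to the members. No paired analysis was possible because the replicate numbers differ between all groups and do not say which libraries share an animal. Levels under 1 CPM, as of Exo1 and Rad51ap1 in saline CD31+, EpCAM+ and triple-negative cells, rest on few counts.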
